A study of Mus musculus with 75 samples.

Results

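The Asb4 locus is described here by the deposited chromatin regions that overlap chr6:5300000-5400000 (mm9), a window of 100 kb drawn around the mouse gene Asb4 and its flanks. The window held 9 of 48634 regions in the table of open chromatin (ATAC-seq) and 9 of 126368 regions in the table of histone H3 lysine 27 acetylation (H3K27ac ChIP-seq), 18 of 175002 regions in all. The locus was picked because these same libraries show it to differ between the 2 sorts of nuclei in both assays, so differences between sorts are given as a description with no test. The tables name no genes and the reference annotation is of another build, so the window is tied to Asb4 by its definition only, and no region is called a promoter, exonic or intronic here.

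The nuclei came from pooled hypothalami of LepRcre/+; SUN1-sfGFP/+ mice, heterozygous for both alleles in every group, in which Cre made by leptin receptor (LepRb) cells turns on a green fluorescent nuclear envelope protein, which stays on in cells that made Cre earlier in life. GFP-positive nuclei (labelled LepRb positive) were sorted from GFP-negative nuclei (the other hypothalamic nuclei), so each sort is a mixture of many cell types, and a region read in fewer cells and a region read less per cell cannot be told apart. The sorts were taken from 4 treatments. Fed mice ate freely. Their sample titles carry the code SSS, as do those of Fast mice, so they may have had saline too, but no injection times are listed for them. Fast mice were fasted for 36 h with saline at 12, 24 and 34 h. Lep2 mice were fasted for 36 h with leptin at 5 mg/kg at 34 h, 2 h before collection. The code SSL in their sample titles means that they may have had saline before the leptin, but no saline times are listed for them. Lep24 mice were fasted for 36 h with leptin at 5 mg/kg at 12, 24 and 34 h, labelled as 24 hours of leptin. Each assay had 16 libraries, 2 for each treatment and sort. The sex and number of mice in a pool are not given in the sources used here, nor is whether the libraries of a group came from separate pools, so p-values measure the spread between these libraries only, which may be technical. The labelled cell type could not be checked against Lepr or other markers, since the regions carry no gene names.

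A set of 6 H3K27ac libraries stands apart from the rest, namely replicate 1 in both sorts of Fed, Lep2 and Lep24. Regions on the mitochondrial genome held 0.0750% to 0.238% of their signal and 0.0102% to 0.0384% in the remaining 10 libraries. Among ATAC libraries, replicate 2 of Fast GFP-positive nuclei had the most regions listed at 0, 7.31% of them, against 2.36% to 5.05% in the other 15. Without the 6, Fed, Lep2 and Lep24 keep 1 H3K27ac library per sort, so values for treatment without them are given with no p.

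Asb4 encodes ankyrin repeat and SOCS box protein 4, which picks substrates for a cullin-RING ubiquitin ligase: its ankyrin repeats bind the substrate and its SOCS box binds elongins B and C. It is known as a gene of the arcuate nucleus, the part of the hypothalamus where leptin acts on Pomc and Agrp neurons, and is reported to be expressed in both. Leptin signals through its receptor to JAK2 and STAT3, and its level in blood falls on fasting. Open chromatin marks DNA that proteins can reach, and H3K27ac marks active promoters and enhancers. In RefSeq (GRCm38.p6) the protein-coding neighbours of Asb4 are Pon1, Pon3 and Pon2, the paraoxonase genes, on one side and Pdk4, a kinase that restrains pyruvate dehydrogenase, on the other. The RNA libraries of the study are not analysed here.

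RefSeq gives Asb4 2 start sites, both on the plus strand. The 250 bases before each are shown because the locus is named for this gene, and they cannot be placed among the mm9 regions. The capitals mark TAATTA, a core bound by many homeodomain proteins, and ATTTGCAT, the octamer bound by POU proteins, a type of transcription factor widely used in the hypothalamus.
Asb4 start 1, chr6:5383136-5383385 (GRCm38.p6, plus strand): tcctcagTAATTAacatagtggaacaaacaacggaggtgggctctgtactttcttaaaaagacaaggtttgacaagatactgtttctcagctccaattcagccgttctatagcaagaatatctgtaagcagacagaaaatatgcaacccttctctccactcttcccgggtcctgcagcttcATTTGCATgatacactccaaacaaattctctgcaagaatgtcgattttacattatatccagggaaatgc
Asb4 start 2, chr6:5390160-5390409 (GRCm38.p6, plus strand): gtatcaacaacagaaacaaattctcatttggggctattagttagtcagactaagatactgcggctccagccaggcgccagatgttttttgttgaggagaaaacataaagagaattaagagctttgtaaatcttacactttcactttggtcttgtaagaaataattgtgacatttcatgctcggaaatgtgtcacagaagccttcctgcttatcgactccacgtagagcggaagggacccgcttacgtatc
Several common motifs searched on both strands had no match in either stretch. The STAT factor motif TTCNNNGAA is held by 7.02% of 32841 promoter stretches of the same length, the cyclic AMP response element TGACGTCA by 1.55%, the AP-1 motif TGANTCA by 6.75%, the Sp1 motif GGGCGG by 32.7% and the core promoter motif TATAAA by 12.4%. TAATTA and ATTTGCAT were looked for after the sequence had been read, and 4.84% and 1.60% of all promoter stretches hold them. Both Asb4 stretches are poor in G and C, at 40.8% for start 1 and 41.6% for start 2, against a median of 52.4%.

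The acetylated regions made up 1 long run and 2 separate pieces. Numbered along the chromosome as M1 to M9 (M for the mark), regions M1 to M7 adjoin one another without a gap and cover 50177 bp, chr6:5322199-5372375. The 2 widest of the run are M2 (chr6:5324149-5335409, 11261 bp) and M6 (chr6:5349686-5366051, 16366 bp). The small M8 (chr6:5377545-5377970, 426 bp) follows after 5169 bp, and M9 (chr6:5388322-5402141, 13820 bp) after a further 10351 bp. M9 runs 2141 bp past the end of the window.

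Every open region lay fully inside a wide acetylated one. Numbered A1 to A9 (A for accessible), A1 (chr6:5324651-5325569), A2 (chr6:5332641-5332999) and A3 (chr6:5333639-5334562) lie in M2. Regions A4 (chr6:5351350-5351973), A5 (chr6:5353173-5354211), A6 (chr6:5358229-5359124) and A7 (chr6:5360907-5361330) lie in M6, and A8 (chr6:5392861-5393603) and A9 (chr6:5397542-5397892) lie in M9. They are 351 to 1039 bp long. All 18 regions passed the filter on low signal, which left out the lowest 10% of regions by mean. Apart from the end of M9, the tables have no region for 50881 bp before the window and 42946 bp after it.

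**Figure D1:**
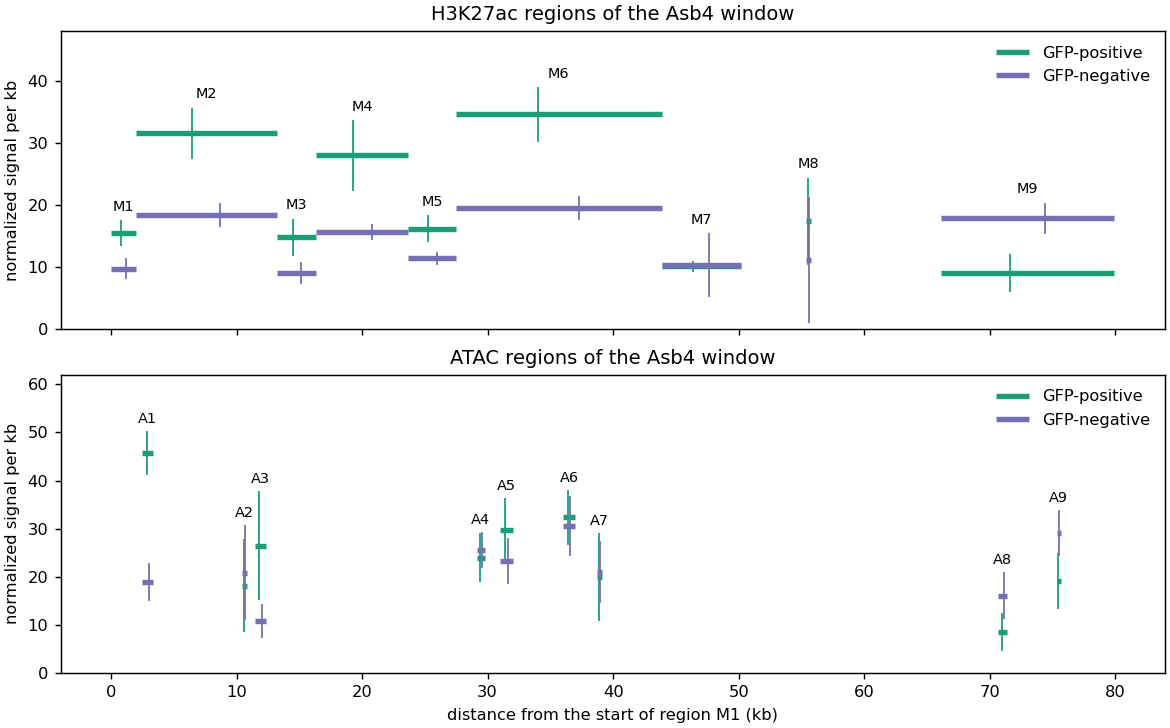
Mean normalized signal per kb of each H3K27ac region (top) and ATAC region (bottom), against the distance from the start of M1 in kb. Horizontal bars span the region, in green for GFP-positive and purple for GFP-negative nuclei, and vertical lines are ± 1 SD over 8 libraries; M1 to M6 and A1 stand higher in GFP-positive nuclei, and M9, A8 and A9 lower.

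Values are the authors' normalized signal, a number without a unit, made by a method not given in the sources used here, that is taken as comparable between the libraries of an assay. Levels of different regions are compared per kb. In GFP-positive nuclei M6 averaged 34.6 ± 4.38, M2 31.6 ± 4.11, M4 28.0 ± 5.72 and M9 9.07 ± 3.05 signal per kb (SD, n = 8). In GFP-negative nuclei the same regions averaged 19.6 ± 1.98, 18.4 ± 1.96, 15.7 ± 1.32 and 17.9 ± 2.51 signal per kb (SD, n = 8). M9 was within 1 SD of M2 and M6 in GFP-negative nuclei and under both in GFP-positive nuclei. It held 8.75 ± 3.56% of the window's H3K27ac signal in GFP-positive nuclei and 23.5 ± 2.87% in GFP-negative nuclei (SD, n = 8 each). Among the open regions A1 had the highest level per kb in GFP-positive nuclei, 45.7 ± 4.56, against 18.9 ± 3.98 in GFP-negative nuclei, and A6 the highest in GFP-negative nuclei, 30.6 ± 6.25, against 32.4 ± 5.71 in GFP-positive nuclei (SD, n = 8 each).

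Between the sorts, the window split in 2. Most of the long acetylated run and the open regions A1 and A3 inside M2 were higher in GFP-positive nuclei, M7 at the end of the run being near equal over all libraries, and M9 with A8 and A9 inside it was lower. Summed over M1 to M7, H3K27ac signal was 1329 ± 138 in GFP-positive nuclei and 799 ± 25.3 in GFP-negative nuclei (SD, n = 8 each), a ratio of 1.66. Without the 6 libraries that stand apart it was 1411 ± 70.1 in GFP-positive nuclei and 794 ± 26.4 in GFP-negative nuclei (SD, n = 5 each), a ratio of 1.78. Libraries of the run ranged from 1082 to 1532 in GFP-positive nuclei and from 756 to 825 in GFP-negative nuclei, with no overlap.

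Region A1, near the start of M2, was the 1 open region of the 9 whose sorts did not overlap. In GFP-positive nuclei its signal, replicate 1 then 2, was 41.4 and 44.3 in Fed, 40.6 and 37.2 in Fast, 42.0 and 41.5 in Lep2, and 50.8 and 38.2 in Lep24. In GFP-negative nuclei it was 14.8 and 22.2 in Fed, 19.3 and 12.9 in Fast, 12.3 and 18.8 in Lep2, and 18.2 and 20.8 in Lep24. The lowest GFP-positive library, 37.2, was above the highest GFP-negative one, 22.2. A1 was 2.37-fold higher in GFP-positive nuclei, a log2(signal + 1) difference of 1.25 ± 0.30 (SD over 8 pairs, each a GFP-positive and a GFP-negative library that share a treatment and a replicate number). The shared number is a label. Same-numbered H3K27ac libraries of Fed, Lep2 and Lep24 deviated together, between treatments as well as between sorts, so the number was not taken to pair the libraries. A spread or count over pairs therefore depends on how they are matched, and the mean difference does not. Setting each GFP-positive library against both GFP-negative libraries of its treatment gives 16 comparisons. Of these, A1, M1, M2, M4, M5 and M6 were higher in GFP-positive nuclei in 16, A3 and M3 in 15, and M9 was lower in 16 and A8 and A9 in 15. The share of all regions with such counts was not computed, so nothing is read from them.

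Region A3, the third open region of M2, was higher in GFP-positive nuclei in each of the 8 pairs, 2.25-fold. Its GFP-positive signal was 22.7 and 13.9 in Fed, 20.0 and 10.7 in Fast, 34.3 and 31.0 in Lep2, and 42.0 and 21.1 in Lep24. Its GFP-negative signal was 12.5 and 7.3 in Fed, 10.8 and 4.6 in Fast, 12.8 and 14.3 in Lep2, and 8.2 and 8.7 in Lep24. The sorts overlapped, since the lower Fed and Fast GFP-positive libraries lay among the higher GFP-negative ones. The sort difference was 0.83 in Fed, 0.95 in Fast, 1.21 in Lep2 and 1.71 in Lep24 on the log2(signal + 1) scale.

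Region A8, in M9, went the other way. Its signal in GFP-positive nuclei was 9.6 and 5.4 in Fed, 8.7 and 0 in Fast, 6.1 and 6.3 in Lep2, and 8.0 and 6.5 in Lep24, and in GFP-negative nuclei 10.3 and 6.1 in Fed, 12.4 and 15.8 in Fast, 12.3 and 17.7 in Lep2, and 9.6 and 11.3 in Lep24. It was lower in GFP-positive nuclei in 8 of 8 pairs, by 1.00 ± 1.31 on the log2(signal + 1) scale (SD over 8 pairs), with 1 GFP-positive library listed at 0. Its neighbour A9 averaged 6.69 ± 2.05 in GFP-positive nuclei and 10.2 ± 1.67 in GFP-negative nuclei (SD, n = 8 each), and was lower in 8 of 8 pairs.

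None of the 4 open regions inside M6 separated the sorts. Region A5 had a GFP-positive signal of 35.8 and 33.3 in Fed, 33.7 and 17.5 in Fast, 34.3 and 23.9 in Lep2, and 38.2 and 30.3 in Lep24. Its GFP-negative signal was 20.2 and 27.7 in Fed, 28.5 and 17.8 in Fast, 18.5 and 23.2 in Lep2, and 25.4 and 31.6 in Lep24. The sorts overlapped widely, with A5 1.26-fold higher in GFP-positive nuclei and higher in 6 of 8 pairs. Region A6 had a GFP-positive signal of 25.5 and 32.0 in Fed, 34.8 and 35.0 in Fast, 30.9 and 23.9 in Lep2, and 28.7 and 21.1 in Lep24, and a GFP-negative signal of 21.7 and 27.7 in Fed, 26.2 and 23.6 in Fast, 24.2 and 29.7 in Lep2, and 26.1 and 39.8 in Lep24. Its sort difference of 0.08 ± 0.46 was smaller than its spread over the 8 pairs. A2, A4 and A7 had sort differences of -0.18, -0.10 and -0.14, also within their spread.

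Region M6, the widest of the acetylated regions and the one with the most signal, had the smallest spread of its sort difference among the 18 regions. Its signal in GFP-positive nuclei was 561.2 and 629.6 in Fed, 635.2 and 662.8 in Fast, 467.4 and 532.5 in Lep2, and 483.5 and 556.2 in Lep24. In GFP-negative nuclei it was 307.9 and 336.5 in Fed, 354.1 and 334.4 in Fast, 283.5 and 353.7 in Lep2, and 265.0 and 325.3 in Lep24. The lowest GFP-positive library was above the highest GFP-negative one, and M6 was 1.76-fold higher in GFP-positive nuclei, a log2(signal + 1) difference of 0.82 ± 0.12 (SD over 8 pairs).

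Region M2, which holds A1 and A3, had a GFP-positive signal of 347.2 and 358.0 in Fed, 339.1 and 415.4 in Fast, 268.7 and 391.2 in Lep2, and 329.1 and 395.3 in Lep24. Its GFP-negative signal was 192.3 and 195.9 in Fed, 203.4 and 242.6 in Fast, 209.5 and 203.5 in Lep2, and 236.6 and 177.0 in Lep24. The sorts did not overlap, and M2 was 1.70-fold higher in GFP-positive nuclei.

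Region M9 was the only acetylated region of the 9 with a lower mean in GFP-positive nuclei on the log2(signal + 1) scale. Its GFP-positive signal was 152.2 and 116.3 in Fed, 88.7 and 101.0 in Fast, 209.3 and 91.3 in Lep2, and 148.7 and 95 in Lep24. Its GFP-negative signal was 234.2 and 183.9 in Fed, 271.1 and 254.1 in Fast, 269.5 and 254.9 in Lep2, and 216.9 and 293.6 in Lep24. M9 was 2.03-fold lower in GFP-positive nuclei and lower in 8 of 8 pairs, with an overlap between replicate 1 of Lep2 GFP-positive and replicate 2 of Fed GFP-negative nuclei.

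The 3 highest GFP-positive values of M9 came from the libraries that stand apart. The M9 difference was -0.51 on the log2(signal + 1) scale in the 3 pairs of these libraries and -1.33 in the other 5 pairs, while that of M6 was 0.82 in both. In the same order the difference was 0.36 and 0.82 for M1, 0.56 and 0.89 for M2, 0.87 and 0.56 for M3, 0.51 and 0.98 for M4, 0.52 and 0.48 for M5, and 0.16 and 1.41 for M8. M7 turned its sign, at -0.60 in the 3 pairs and 0.52 in the other 5, each of which was above 0 (0.30 to 0.85). The part of these libraries' difference in the result was not tested.

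The short M8 had signals of 6.6 and 10.9 in Fed, 3.5 and 4.3 in Fast, 11.0 and 7.4 in Lep2, and 5.3 and 10.2 in Lep24 GFP-positive nuclei. In GFP-negative nuclei they were 2.7 and 0 in Fed, 4.1 and 0 in Fast, 7.1 and 3.5 in Lep2, and 12.8 and 7.8 in Lep24. The sorts overlapped and the spread over pairs, 1.47, was larger than the difference of 0.94 on the log2(signal + 1) scale. The remaining regions of the run, M1, M3, M4 and M5, were 1.41 to 1.75-fold higher in GFP-positive nuclei and higher in 8 of 8 pairs each. M7, at the end of the run, averaged 63.9 ± 5.51 in GFP-positive nuclei and 65.4 ± 32.4 in GFP-negative nuclei (SD, n = 8 each). Without the libraries that stand apart it averaged 63.2 ± 6.85 in GFP-positive nuclei and 44.2 ± 9.35 in GFP-negative nuclei (SD, n = 5 each).

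**Figure D2:**
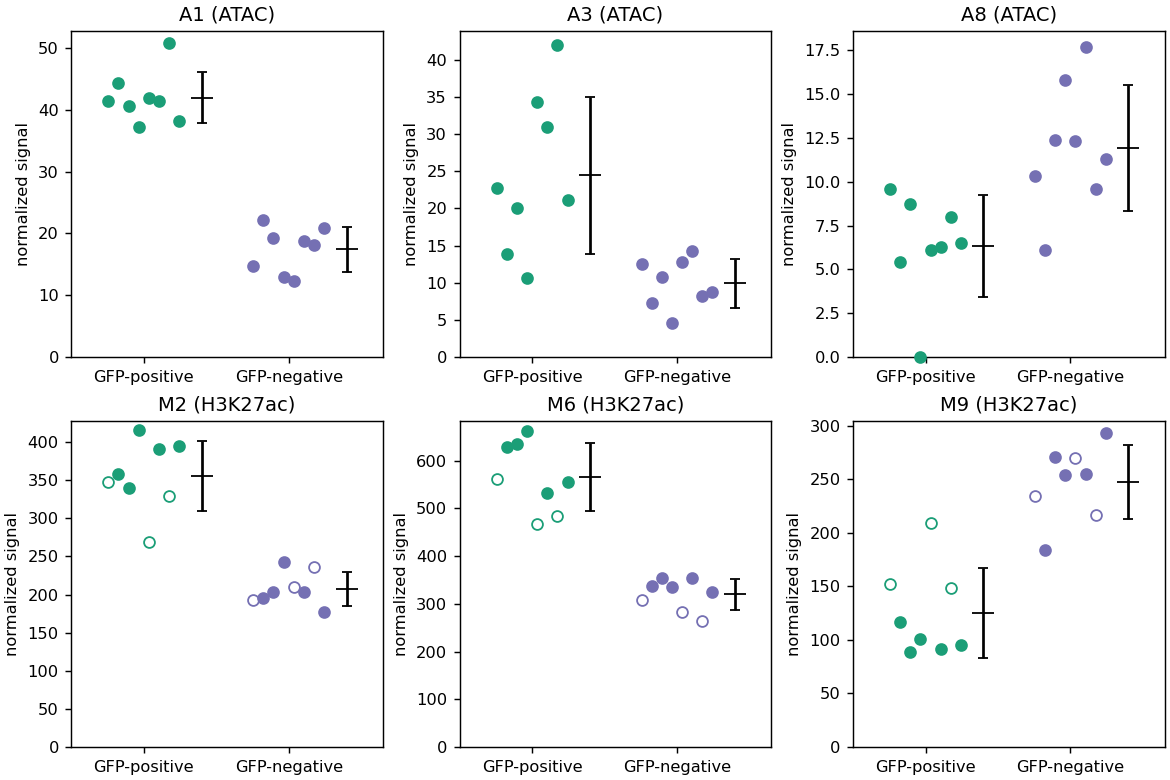
Normalized signal of 6 regions in each library, with GFP-positive libraries left (green) and GFP-negative libraries right (purple) in the order Fed, Fast, Lep2, Lep24, and the mean ± SD of 8 in black. Open circles are the 6 H3K27ac libraries that stand apart; A1, M2 and M6 separate the sorts, and in M9 the open circles among GFP-positive libraries are the 3 highest.

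In counts, 4 of 9 open regions and 8 of 9 acetylated regions had a higher mean log2(signal + 1) in GFP-positive nuclei. The share of all regions with a higher mean was not computed. M1 to M7 are adjoining parts of the same run, so counts of acetylated regions are not counts of separate sites. All 8 GFP-positive libraries were above all 8 GFP-negative libraries for 1 open region (A1; 0.674% of the 43766 ATAC regions kept) and for 5 acetylated regions (M1, M2, M4, M5 and M6; 0.674% of the 113725 H3K27ac regions kept). Higher in each of the 8 pairs were 2 open regions (background 4.02%) and 6 acetylated regions (background 6.47%), and lower in each were 2 (background 4.91%) and 1 (background 7.13%). The locus was chosen on this contrast, so these shares are not evidence about it. In the authors' deposited table, the GFP-positive against GFP-negative comparison has a log2 fold change of 1.25 for A1, 0.90 for M6 and -1.05 for M9. The authors also give separate terms for how the sort difference changes in Lep2 and in Lep24. With such terms, this comparison is read as that of the groups without leptin, unlike the differences over all 16 libraries given above. The authors' comparison of the sorts in Lep24 alone has 1.23 for A1, 0.82 for M6 and -1.12 for M9.

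The nearest acetylated region after the window, chr6:5442946-5445525, averaged 19.1 ± 4.90 in GFP-positive nuclei and 35.9 ± 7.37 in GFP-negative nuclei (SD, n = 8 each), a log2(signal + 1) difference of -0.88 in the direction of M9. The nearest open region there, chr6:5445906-5446805, averaged 13.2 ± 3.57 in GFP-positive nuclei and 12.8 ± 2.64 in GFP-negative nuclei. On the other side, the nearest regions (chr6:5248116-5248438 open, chr6:5248908-5249119 acetylated) had mean signals under 7 in both sorts.

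**Figure D3:**
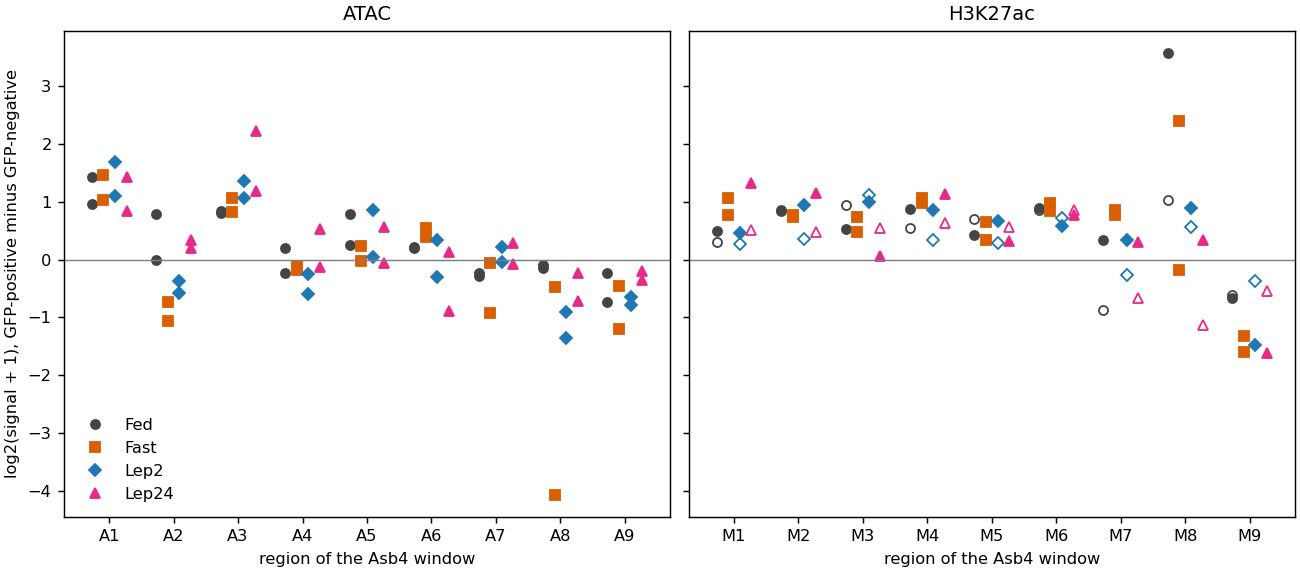
Difference in log2(signal + 1) between GFP-positive and GFP-negative libraries for each pair of the same treatment and replicate number, for ATAC (left) and H3K27ac (right) regions. Open symbols are the 3 pairs of H3K27ac libraries that stand apart; A1 and A3 are above 0 and A8, A9 and M9 below 0 in all 8 pairs, and M6 lies between 0.59 and 0.98.

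Across the 16 libraries M2 and M4 of the run varied together and opposite to M9. Pearson's r of log2(signal + 1) was 0.94 between M2 and M4, -0.96 between M4 and M9, and 0.75 between A1 and A3. In the same order it was 0.82, -0.94 and 0.62 within the GFP-positive libraries, and 0.59, -0.35 and 0.03 within the GFP-negative libraries. Replicate 1 of Fed, Lep2 and Lep24, which stands apart, had the lowest M4 signals of the GFP-positive libraries, 158.0, 141.0 and 173.7. The same libraries had the highest M9 signals, 152.2, 209.3 and 148.7. The r within a sort without the libraries that stand apart was not computed, so covariation within a sort is not read from these values. Both regions of a pair were read in the same libraries, which differ in treatment and sort and whose depth in reads is unknown, so no p is given. The median r over the 36 pairs of acetylated regions was 0.41 over all 16 libraries, -0.08 within the 8 GFP-positive and -0.10 within the 8 GFP-negative libraries, and 0.72 over the 10 libraries that do not stand apart. For open regions the median was 0.07 over all 16 and 0.15 within each sort. Over the 8 group means of the assays, r with M2 was 0.95 for A1, -0.03 for A2 and 0.75 for A3. With M9, r was 0.89 for A8 and 0.87 for A9. With M6, r was -0.10 for A4, 0.55 for A5, 0.32 for A6 and -0.38 for A7. The means span both sorts and the locus was chosen on the sort difference, so a high r can come from that difference alone. In Fed, Fast, Lep2 and Lep24 GFP-positive nuclei, A1 averaged 42.85, 38.9, 41.75 and 44.5, and M2 352.6, 377.25, 329.95 and 362.2. In GFP-negative nuclei A1 averaged 18.5, 16.1, 15.55 and 19.5, and M2 194.1, 223, 206.5 and 206.8.

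Elsewhere in the genome, the open region most like A1 over the 16 libraries was chr9:15186407-15186995 (r = 0.93), with a mean signal of 18.1 in the GFP-positive sort and 5.86 in the GFP-negative sort. The 5 most like regions had r of 0.92 to 0.93. Of 43757 open regions compared, 16 had r over 0.9 with A1. The acetylated region most like M9, the one with the largest sort difference, was chr19:4552326-4564554 (r = 0.99), with a mean signal of 108 in the GFP-positive sort and 249 in the GFP-negative sort. The 5 most like regions had r of 0.98 to 0.99. Of 113716 acetylated regions compared, 2038 had r over 0.9 with M9. A1 and M9 were taken for their sort differences and r covers both sorts. It therefore does not separate a shared sort difference from likeness within a sort.

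No region of the window passed the threshold for fasting or leptin. Of 9 open regions, 0 had an adjusted p under 0.05 in any of 12 contrasts (limma, Benjamini-Hochberg over all regions tested; 0.0% of 43766 ATAC regions in each contrast), and of 9 acetylated regions also 0 (0.0% of 113725 H3K27ac regions in each). Fasting was taken as Fast minus Fed and leptin as Lep2 or Lep24 minus Fast, in each sort, over both sorts, and as a difference between the sorts. The median 95% interval for a change within a sort was ± 0.87 for open and ± 0.59 for acetylated regions on the log2(signal + 1) scale, before any adjustment, and a change had to be larger than this to pass the adjusted test. At an unadjusted p under 0.05 the fasting contrast had 1 of 9 open regions in GFP-positive nuclei (A8, lower; 6.56% of all ATAC regions), 1 in GFP-negative nuclei (A2, higher; 1.97%), 1 over both sorts (A2, higher; 3.98%) and 1 for the difference between sorts (A8; 3.95%). Lep2 minus Fast had 2 in GFP-positive nuclei (A3 and A7, higher; 7.85%), 0 in GFP-negative nuclei (1.5%), 2 over both sorts (A3 and A7, higher; 4.26%) and 0 for the difference (3.98%). Lep24 minus Fast had 2 in GFP-positive nuclei (A3 and A8, higher; 6.7%), 0 in GFP-negative nuclei (1.49%), 0 over both sorts (4.33%) and 1 for the difference (A6; 2.97%). One region is a larger share of 9 than any of these background shares, so nothing is read from counts of 0 to 2.

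For acetylated regions the fasting contrast had 0 of 9 at an unadjusted p under 0.05 in GFP-positive nuclei (1.91% of all H3K27ac regions), 1 in GFP-negative nuclei (M7, lower; 5.98%), 0 over both sorts (5.84%) and 0 for the difference between sorts (2.36%). Lep2 minus Fast had 0 in GFP-positive nuclei (3.27%), 0 in GFP-negative nuclei (4.63%), 1 over both sorts (M8, higher; 6.42%) and 0 for the difference (2.36%). Lep24 minus Fast had 0 in GFP-positive nuclei (2.65%), 2 in GFP-negative nuclei (M7 and M8, higher; 6.05%), 1 over both sorts (M8, higher; 7.53%) and 0 for the difference (2.17%). The authors' deposited table compares Lep2 and Lep24 with Fast and with each other within each sort, and does not compare Fast with Fed. It also has a Lep2 and a Lep24 comparison against SSS, a code that the titles of Fed and Fast share. Whether Fed is part of that reference is not stated. In the authors' deposited table, all these comparisons of the 18 regions have an FDR of 1, with a raw p under 0.05 in 2 of 72 for ATAC and 4 of 72 for H3K27ac.

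Summed over A1 to A9, open signal in GFP-positive nuclei averaged 165 ± 17.5 in Fed, 151 ± 26.8 in Fast, 174 ± 18.8 in Lep2 and 188 ± 37.0 in Lep24, and in GFP-negative nuclei 120 ± 3.68, 131 ± 16.9, 140 ± 13.7 and 143 ± 23.5 in the same order (SD, n = 2 each). From high to low the 4 GFP-positive groups came first, and neighbours in that order differed by less than the larger of their SDs. Summed over M1 to M7, H3K27ac signal in GFP-positive nuclei averaged 1344 ± 71.8 in Fed, 1467 ± 92.3 in Fast, 1217 ± 190 in Lep2 and 1288 ± 126 in Lep24, and in GFP-negative nuclei 807 ± 24.8, 807 ± 24.7, 794 ± 25.5 and 787 ± 44.8 (SD, n = 2 each). GFP-negative nuclei had nearly the same sum under each treatment, and the GFP-positive groups overlapped except that both Fast libraries (1402 and 1532) were above the 6 others, of which 3 are libraries that stand apart.

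The smallest unadjusted p for leptin was at A3, the open region that also differed between the sorts. Its GFP-positive libraries were 34.3 and 31.0 in Lep2 and 42.0 and 21.1 in Lep24, against 20.0 and 10.7 in Fast, with all 4 leptin libraries above both Fast libraries. The lower Fast value is from the ATAC library with the most regions listed at 0. Replicate 1 of Fed GFP-positive nuclei, at 22.7, was above the lower Lep24 library. In GFP-positive nuclei Lep2 minus Fast was 1.10 (SE 0.42, adjusted p = 0.540) and Lep24 minus Fast was 0.98 (SE 0.42, adjusted p = 0.702). In GFP-negative nuclei Lep2 minus Fast was 0.84 (SE 0.42, adjusted p = 1). Over both sorts Lep2 minus Fast was 0.97 (SE 0.30, adjusted p = 1.00). Lep24 minus Fast in GFP-negative nuclei was 0.22. The change was higher in GFP-positive nuclei by 0.26 for Lep2 (95% interval -0.97 to 1.49) and by 0.76 for Lep24 (95% interval -0.47 to 1.99), and neither difference passed the test. With single libraries left out, the GFP-positive change ranged from 0.68 to 1.52 for Lep2 and from 0.50 to 1.46 for Lep24. For A3 the authors' deposited table gives log2 fold changes of 1.03 (Lep2) and 1.01 (Lep24) over Fast in the GFP-positive sort, each with an FDR of 1.

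A7 had a similar order at a lower level: 13.8 and 11.6 in Lep2 and 11.9 and 9.1 in Lep24, against 3.2 and 8.4 in Fast GFP-positive nuclei. Its Lep2 minus Fast change was 1.12 in GFP-positive nuclei (SE 0.47, adjusted p = 0.579), and 0.54 to 1.70 with single libraries left out. In GFP-negative nuclei A7 had 14.2 and 9.8 in Lep2, against 7.0 and 8.8 in Fast, a change of 0.53.

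**Figure D4:**
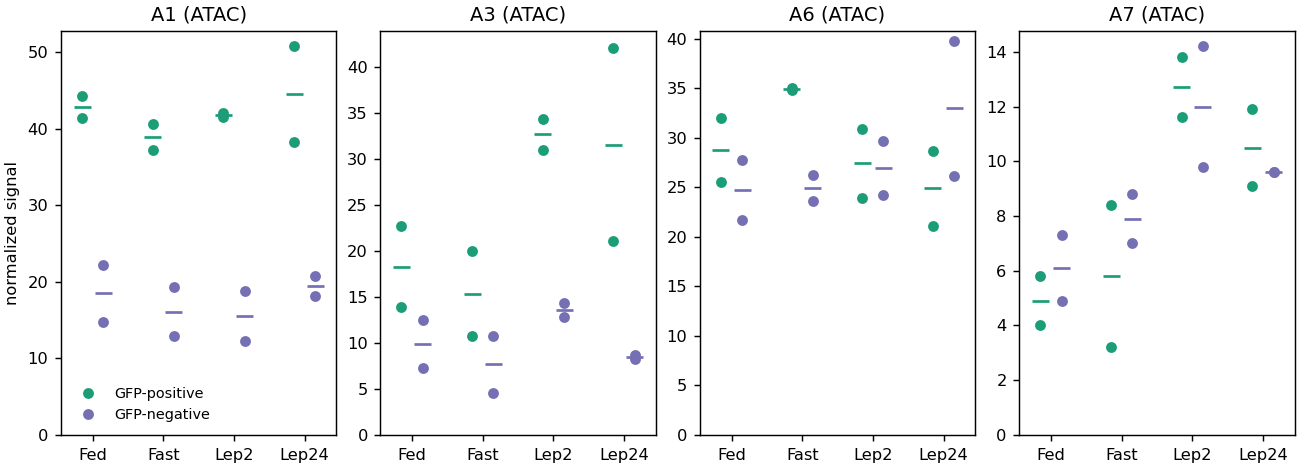
Normalized ATAC signal of A1, A3, A6 and A7 by treatment, with GFP-positive libraries left (green) and GFP-negative libraries right (purple) within each treatment, points for the 2 libraries and a bar for their mean. A3 is higher in Lep2 and Lep24 than in Fast GFP-positive libraries without passing the test, and A1 stays between 37.2 and 50.8 in GFP-positive libraries.

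For fasting, the smallest unadjusted p was at A2. It had 10.1 and 10.8 in Fast, against 5.1 and 0 in Fed GFP-negative nuclei, a change of 2.21 (SE 0.80, adjusted p = 1), and 0.91 to 3.52 with single libraries left out. A8 had 8.7 and 0 in Fast, against 9.6 and 5.4 in Fed GFP-positive nuclei, a change of -1.40 (SE 0.66, adjusted p = 0.740), and differed from its GFP-negative change by -2.15 (SE 0.93, adjusted p = 1.00). Both values rest on libraries listed at 0, and without replicate 2 of Fast GFP-positive nuclei the A8 change was 0.24. Without replicate 1 it was -3.04 (adjusted p = 0.00123).

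Among acetylated regions the smallest unadjusted p were at M8 and M7 in GFP-negative nuclei. M8 had 12.8 and 7.8 in Lep24, against 4.1 and 0 in Fast GFP-negative nuclei, a change of 2.29 (SE 0.78, adjusted p = 0.714). It rests in part on the Fast library listed at 0, and was 1.11 to 3.46 with single libraries left out and 1.96 without the 6 libraries that stand apart. M7 had 118.7 and 44.0 in Fed, 35.4 and 37.4 in Fast, 75.0 and 45.1 in Lep2, and 108.3 and 59.2 in Lep24 GFP-negative nuclei, so the 3 highest of the 8 were the libraries that stand apart. Its change was -0.97 for Fast against Fed (adjusted p = 0.716) and 1.12 for Lep24 against Fast (adjusted p = 0.714), and -0.27 and 0.69 without the 6 libraries that stand apart. The lowest unadjusted p of a difference between sorts was at M7. Its Fast minus Fed change was higher in GFP-positive nuclei by 1.08 (SE 0.58, adjusted p = 1.00), and by 0.47 without the 6 libraries.

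At A1, M6 and M9 no treatment change passed the test. In GFP-positive nuclei A1 differed by -0.14 between Fast and Fed, 0.10 between Lep2 and Fast and 0.18 between Lep24 and Fast (SE 0.29 each, adjusted p = 0.980, 0.971 and 0.965). M6 differed by 0.13, -0.38 and -0.32 in the same contrasts (SE 0.20 each, adjusted p = 0.985, 0.923 and 0.942). M9 differed by -0.49, 0.54 and 0.33 (SE 0.35 each, adjusted p = 0.985, 0.923 and 0.942), and without the 6 libraries that stand apart by -0.29, -0.05 and 0.01. These contrasts share the Fast libraries, so a high or low Fast library moves all 3.

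**Figure D5:**
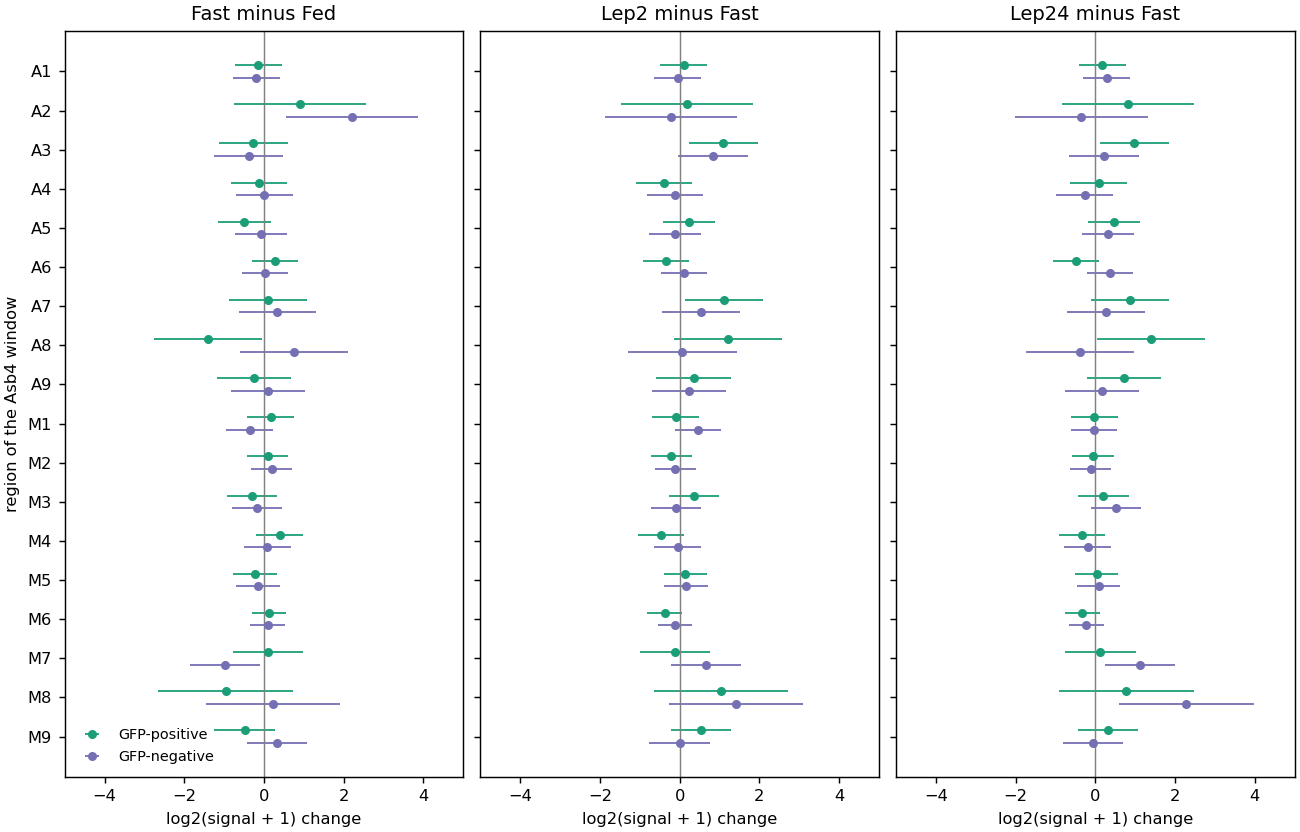
Change in log2(signal + 1) with its 95% interval from the limma fit for the 18 regions, Fast minus Fed (left), Lep2 minus Fast (middle) and Lep24 minus Fast (right), with GFP-positive nuclei (green) above GFP-negative nuclei (purple). No adjusted p is under 0.05; A3 in Lep2 and Lep24 GFP-positive nuclei and A2 in Fast GFP-negative nuclei are among the intervals that leave out 0.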

How the data were processed

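Per the labels' protocols, nuclei of pooled hypothalami were sorted by GFP and used for ATAC-seq or H3K27ac ChIP-seq. The deposited tables give each region's normalized signal per library, made by the authors by a method not given in the sources used here, with coordinates in mm9. Per the submitters' processing notes, which state no role for any of them, MACS2, Bowtie 1.2, Bowtie2 2.2.6, STAR 2.5.2b, DESeq2 1.16.1, HTSeq 0.6.0 and CASAVA 1.8 were used in the study. Low values did not fall on even steps, so reads were not recovered, and the depth in reads is unknown. Normalized totals over all regions were 1232940 to 1415510 in ATAC and 9247620 to 10963300 in H3K27ac libraries. Per the file headers, the tables also hold a variance-stabilized score per library and, for the authors' comparisons, log2 fold changes, raw p-values and FDR, and each region's size in bp. Coordinates are printed from 1.

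All 32 libraries were grouped by the labels, and 0 columns of samples were unmapped. For treatment, limma 3.58.1 (R 4.3.3, trended variance, a mean for each of 8 groups, all 16 libraries of an assay in 1 fit) was run on log2(signal + 1) over regions above the lowest 10% by mean (5.44 in ATAC, 5.96 in H3K27ac), with Benjamini-Hochberg adjustment over all regions of a contrast at 0.05. The pseudocount of 1 understates changes of low regions. The fit was tested on simulated data. Alternatives were other scalings, filters, pseudocounts, weights, fits with a replicate block or with fewer libraries, and the stabilized scores, this last one chosen after seeing the data. Values in every library are given for the 3 regions of each assay with the highest mean signal, the 3 with the largest sort difference, and any past the threshold; other regions are named by smallest unadjusted p or summarised. M7, M4 and A7 among them were chosen after their values were seen. The members, the motifs and the rule for naming regions were chosen with earlier results of these data known.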

Additional observations from a re-analysis of the deposited data

Results flagged for a closer look

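In 4 of 54 checks of a region and contrast, both libraries of one sort were above both libraries of the group they were compared with, and in the other sort both were below both. Over all regions tested in both assays, 4.17% of such checks did the same (19698 of 472473), and nothing about these regions is read from the 4. The values are the change in GFP-positive minus the change in GFP-negative nuclei on the log2(signal + 1) scale. They were 1.17 at A2 for Lep24 against Fast, -0.824 at M9 for Fast against Fed, 0.452 at M3 for Lep2 against Fast, and -0.774 at M7 for Lep2 against Fast. The limma test of the difference gave unadjusted p of 0.315, 0.120, 0.294 and 0.205 for them in that order, and all adjusted p were 1.00. Without the 6 H3K27ac libraries that stand apart, M9 kept -0.81 and M7 had -0.47, while M3 had 0.39. That leaves 1 library a sort in Fed and in Lep2, so no p is given.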

How the results depend on the processing

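Of 156 recounts of regions past the threshold, 153 gave 0, as reported. The 3 others all came from leaving out replicate 1 of Fast GFP-positive nuclei in ATAC, which left A8 compared with the lone Fast library listed at 0, assumed to vary like the other groups: 3 calls within sorts, 1 over both sorts and 2 for the difference between sorts, each of them at A8, whose changes became -3.04 for Fast against Fed and 3.04 for Lep24 against Fast. Over single libraries left out, the ATAC counts ranged from 0 to 3, 0 to 1 and 0 to 2, and the H3K27ac counts were 0. Without replicate 2 of Fast GFP-positive nuclei, the A8 changes turned to 0.24 for Fast against Fed and -0.24 for Lep24 against Fast. The A3 change for Lep2 against Fast in GFP-positive nuclei kept its sign in 25 alternatives (0.49 to 1.52, lowest adjusted p = 0.103).

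With a replicate block the counts were also 0 for each assay. Libraries with the same number did not deviate together throughout, with correlations of 0.02 to 0.18 in ATAC and -0.16 to 0.55 in H3K27ac. Between the sorts of a treatment, the H3K27ac correlation was 0.45 in Fed, 0.50 in Lep2, 0.37 in Lep24 and 0.01 in Fast. Between treatments of the GFP-positive sort it was 0.49 for Fed with Lep2 and 0.55 for Lep2 with Lep24. The numbers were therefore not taken to pair the samples. Of 450 recomputed sort differences, 442 moved by less than 1 SD over pairs; the 8 that moved came from the authors' stabilized scores, whose scale is compressed. The median r of acetylated regions moved to -0.084 and -0.10 within sorts and 0.72 over the 10 libraries that do not stand apart. With 2 libraries a group and an unknown read depth, small changes of the low regions A2, A7, A8, A9 and M8 are beyond these data.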
